A study of Mus musculus with 2 samples.

Results

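Genes of calcium release and uptake by the sarcoplasmic reticulum were examined in mouse heart, namely Ryr2, Atp2a2, Pln, Sln, Casq1, Casq2, Trdn, Jph2, Hrc and Asph. They were chosen by gene symbol, and all 10 were found among the 22882 symbols of the deposited tables, each on a single row. Control hearts came from Med1fl/fl mice, which carry loxP sites around exons 8 to 10 of Med1, a subunit of the Mediator complex that links transcription factors to RNA polymerase II. The csMed1-/- hearts came from Med1fl/fl mice that also carried Cre recombinase under the α-myosin heavy chain promoter, so the deletion is confined to cardiomyocytes and begins before birth, while fibroblasts, endothelial cells and other cells of the heart keep the gene. Both groups were of C57BL6/J background, 23 days old and of mixed sex, without treatment. RNA of 5 hearts was pooled in each group and 1 library was sequenced from each pool, so that there are no replicates, no value below has an error and no difference was tested.

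In cardiomyocytes each beat begins with a small entry of calcium, which opens the ryanodine receptor and releases the much larger store held in the sarcoplasmic reticulum. The calcium pump SERCA2 then returns calcium to the store, and the small membrane proteins phospholamban and sarcolipin restrain it. Inside the store calcium is held by calsequestrin and the histidine-rich calcium binding protein. Triadin and junctin anchor calsequestrin to the release channel, and junctophilin holds the reticulum against the transverse tubule.

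Values are FPKM, fragments scaled to transcript length and to the size of the library. How the libraries were scaled is not given in the sources used here. The scaling to length is meant to let genes be set side by side. How well it does so here was not tested, and the order, shares and ratios of genes within a library rest on it. A change is the plain ratio of csMed1-/- to Med1fl/fl FPKM and is called a rise or a fall past 2-fold. The study tested for differential expression with a cutoff on the false discovery rate. No such test was made here, so these calls are not the same as those of the study. Changes were read for 10489 genes, referred to as kept genes. The kept genes had a value above 0 in each library and at least 1 FPKM in one or the other. Of these, 18.0% fell and 13.6% rose past 2-fold, and their median log2 ratio was -0.07. Med1 itself had 3.38 FPKM in the Med1fl/fl library and 0.412 FPKM in the csMed1-/- library (log2 ratio -3.04). Of 20 cardiomyocyte markers 19 were found. Among them Actc1 and Mb were listed at 0 in the Med1fl/fl library and at 9189 and 1040 FPKM in the csMed1-/- library. No ratio was read for either, and the cause of these values of 0 was not tested. The 17 others were kept, and their summed level was 81917 FPKM in Med1fl/fl and 42191 FPKM in csMed1-/- heart. Myl2, the ventricular myosin light chain gene, was highest in Med1fl/fl heart (20467 and 6571 FPKM) and Myl3 in csMed1-/- heart (17340 and 10278 FPKM). Past 2-fold, 9 of the 17 fell and 1 rose, Des (1871 and 4851 FPKM), against 18.0% and 13.6% of all kept genes. The other 7 were within 2-fold. The median log2 ratio of the 17 was -1.03. In bulk tissue fewer cardiomyocytes, less RNA per cardiomyocyte and lower expression of these marker genes themselves cannot be told apart. How far the difference in the markers enters the values below was not tested, and each member is therefore also given relative to these markers. Values on that scale are not corrected for cell content.

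Of the 10 members 9 were kept, and 5 of these fell past 2-fold (Atp2a2, Pln, Ryr2, Hrc and Asph), against 18.0% of all kept genes. A single member, Casq1, rose, against 13.6% of all kept genes. Past 4-fold, 4 members were lower, against 5.14% of all kept genes, and 1 was higher, against 4.32%. The other 3 kept members, Casq2, Jph2 and Trdn, were within 2-fold, and Sln was below 1 FPKM in both libraries. The median log2 ratio of the 9 kept members was -1.69. Summed over the 10 genes, the level was 5340 FPKM in Med1fl/fl and 1141 FPKM in csMed1-/- heart, and the share of that sum held by Atp2a2 was 67.1% in Med1fl/fl and 20.9% in csMed1-/- heart.

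**Figure D1:**
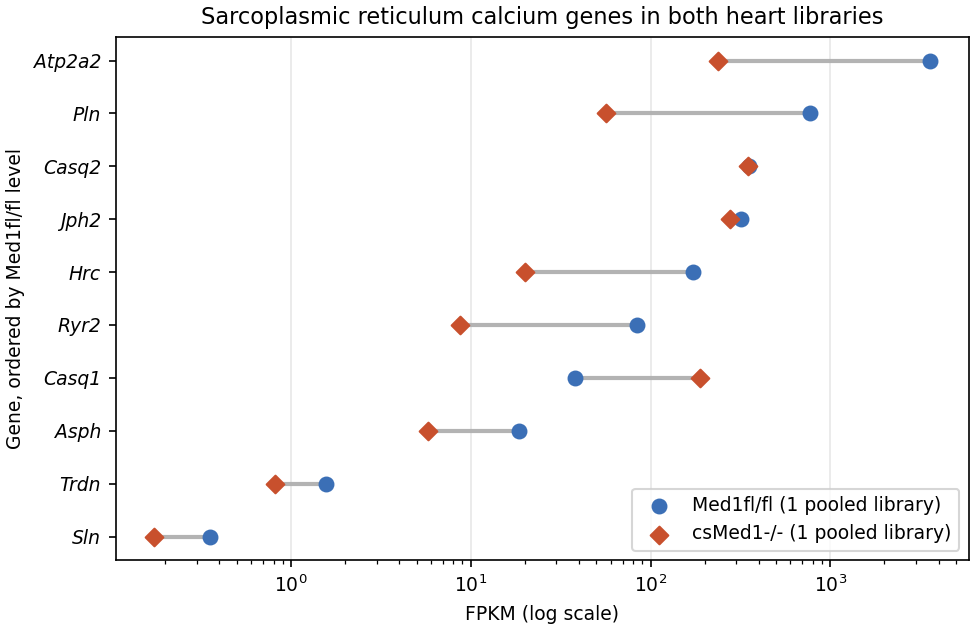
FPKM (log axis) of the 10 genes, 1 row a gene, in the Med1fl/fl library (circles) and the csMed1-/- library (diamonds), each a single pooled library without error. Atp2a2, Pln, Hrc, Ryr2 and Asph lie to the left in csMed1-/-, Casq1 lies to the right (38.0 and 188 FPKM), and the symbols of Casq2 (351 and 347 FPKM) overlap.

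Promoter sequence from RefSeq (GRCm38.p6, the assembly of mm10) was at hand for 6 of the members, and the 250 bases before the start site of each are shown because these genes moved in different directions. Ryr2, Pln and Hrc fell, Casq1 rose, and Casq2 and Jph2 were within 2-fold. Each is written 5′ to 3′ on the strand of its gene, and capitals mark a match on either strand to AGGTCA (the half-site of nuclear receptors, several of which Med1 binds), CATTCC (the MCAT element), AGATAA (bound by GATA factors), TATAAA (the TATA box), GGGCGG (the GC box), CANNTG (the E-box), the CArG box (CC, then 6 bases that are A or T, then GG) or the MEF2 site, searched here only in the form CTA, then 4 bases that are A or T, then TAG.
Ryr2 (chr13:12106946-12107195, minus strand): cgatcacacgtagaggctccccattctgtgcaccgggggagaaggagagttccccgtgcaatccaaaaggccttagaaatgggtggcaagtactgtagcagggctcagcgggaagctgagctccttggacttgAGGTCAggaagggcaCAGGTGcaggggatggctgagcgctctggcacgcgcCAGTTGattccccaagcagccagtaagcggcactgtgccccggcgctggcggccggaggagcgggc
Pln (chr10:53337436-53337685, plus strand): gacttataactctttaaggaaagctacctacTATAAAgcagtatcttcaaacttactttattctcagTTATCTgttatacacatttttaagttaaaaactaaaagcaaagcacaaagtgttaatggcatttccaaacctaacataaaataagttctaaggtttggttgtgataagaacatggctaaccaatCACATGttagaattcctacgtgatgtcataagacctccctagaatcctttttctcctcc
Hrc (chr7:45335019-45335268, plus strand): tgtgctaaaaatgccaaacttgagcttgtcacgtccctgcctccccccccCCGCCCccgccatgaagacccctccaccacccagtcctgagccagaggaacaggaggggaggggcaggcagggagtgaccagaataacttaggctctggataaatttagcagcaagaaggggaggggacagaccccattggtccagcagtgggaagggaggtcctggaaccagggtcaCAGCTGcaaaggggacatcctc
Casq1 (chr1:172219896-172220145, minus strand): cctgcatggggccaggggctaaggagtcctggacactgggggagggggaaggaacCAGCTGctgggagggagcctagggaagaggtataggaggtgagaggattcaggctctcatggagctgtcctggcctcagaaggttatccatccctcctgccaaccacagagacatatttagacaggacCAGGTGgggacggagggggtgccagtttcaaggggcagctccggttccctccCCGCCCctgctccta
Casq2 (chr3:102086165-102086414, plus strand): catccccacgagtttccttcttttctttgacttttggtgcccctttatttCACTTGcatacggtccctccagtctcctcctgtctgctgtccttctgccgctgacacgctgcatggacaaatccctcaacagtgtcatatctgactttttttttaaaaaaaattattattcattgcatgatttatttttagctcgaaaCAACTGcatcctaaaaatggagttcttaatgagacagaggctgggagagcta
Jph2 (chr2:163397994-163398243, minus strand): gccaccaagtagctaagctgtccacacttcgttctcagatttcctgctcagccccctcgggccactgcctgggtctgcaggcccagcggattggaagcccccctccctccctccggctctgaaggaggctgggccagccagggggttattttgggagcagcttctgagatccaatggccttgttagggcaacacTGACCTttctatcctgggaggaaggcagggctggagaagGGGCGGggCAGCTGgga

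Among these 6 windows AGGTCA was found in Ryr2, at bases -117 to -112 from the start site, and in Jph2, at bases -56 to -51 on the other strand. Ryr2 fell and Jph2 did not pass 2-fold, and the motif is held by 14.0% of the 32851 windows in the table. The E-box was found in all 6 windows, as in 66.2% of all windows. GGGCGG was found in Hrc, Casq1 and Jph2 (32.7% of all windows), whereas AGATAA (9.99% of all windows) and TATAAA (12.4%) were found in Pln alone of the 6. In Pln, TATAAA lay at bases -219 to -214 and AGATAA at bases -183 to -178 on the other strand. No match to CATTCC (12.6% of all windows), to the CArG box (1.47%) or to that form of the MEF2 site (0.508%) lay in the 6 windows. No marked stretches overlap in these windows. A second window of Jph2, from a nearby start site, holds the same motifs and is not shown. The Pln window had a GC content of 32.8% and the Casq2 window one of 41.6%, below the median of 52.4%, and the windows of Hrc (59.6%), Casq1 (61.6%), Jph2 (62.0%) and Ryr2 (63.2%) were above it.

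The pump and its inhibitor fell together. Atp2a2 encodes SERCA2, the pump that refills the store, and lies on chromosome 5 from 122453513 to 122502225 on the minus strand (GENCODE M21, GRCm38). It had 3585 FPKM in Med1fl/fl and 238 FPKM in csMed1-/- heart, a 15.1-fold fall. Its place by level among the kept genes was 32 in Med1fl/fl and 485 in csMed1-/- heart, and 81 kept genes had a lower ratio. Pln (chromosome 10, 53337667 to 53345987, plus strand) encodes phospholamban, which slows the pump until it is phosphorylated. Pln had 771 FPKM in Med1fl/fl and 56.2 FPKM in csMed1-/- heart, a 13.7-fold fall.

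Because both genes fell by a similar factor, the FPKM ratio of Pln to Atp2a2 within a library was 0.215 in Med1fl/fl and 0.236 in csMed1-/- heart. A ratio within a library does not depend on how the libraries were scaled to each other. Among the 1696 kept genes at 50 FPKM or more in Med1fl/fl, Pln had the log2 ratio nearest to that of Atp2a2 (-3.78 against -3.91), and Atp2a2 the one nearest to that of Pln. The next nearest to both were Clec3b (-3.53) and Ano10 (-3.47). With 2 libraries such likeness is a single number a gene and describes no more than that.

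Sln (chromosome 9, 53850164 to 53854560, plus strand) encodes sarcolipin, the second inhibitor of the pump, which in the mouse heart belongs to the atria. It had 0.356 FPKM in Med1fl/fl and 0.174 FPKM in csMed1-/- heart, so that both inhibitors together stood to Atp2a2 at 0.215 and 0.237. Other atrial markers differed widely, with Myl7 at 1.42 and 1.10 FPKM, Bmp10 listed at 0 in both libraries, Myl4 at 7.44 and 55.2 FPKM, and Nppa at 468 and 11114 FPKM. Nppa, the gene of atrial natriuretic peptide, is also expressed by stressed ventricle.

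The release channel fell as well. Ryr2 (chromosome 13, 11553102 to 12106945, minus strand) encodes the cardiac ryanodine receptor through which the store empties. It had 84.6 FPKM in Med1fl/fl and 8.70 FPKM in csMed1-/- heart, a 9.72-fold fall (log2 ratio -3.28). Its place by level went from 1106 to 5099 of the kept genes. Its ratio of 0.103 was above that of the pump, 0.0664, and the FPKM ratio of Atp2a2 to Ryr2 was 42.4 in Med1fl/fl and 27.4 in csMed1-/- heart. Genes at 50 FPKM or more whose log2 ratio lay nearest to that of Ryr2 were Gja1 (-3.26), the main ventricular gap junction gene, Gsta4 (-3.25) and Fhl2 (-3.32).

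**Figure D2:**
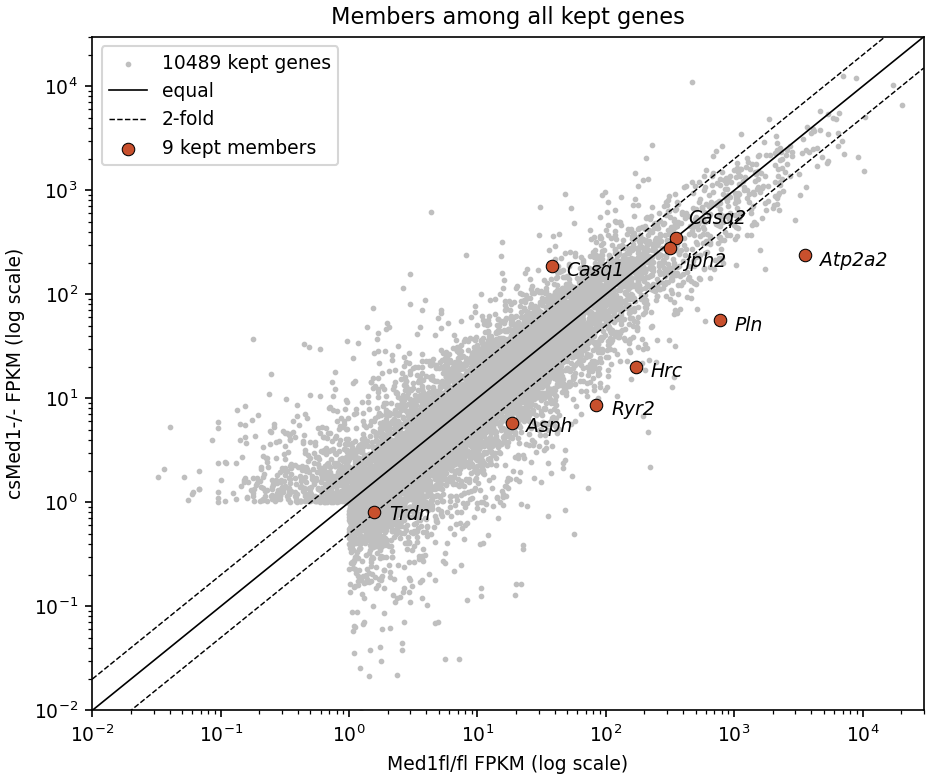
FPKM of the 10489 kept genes (grey points) and of the 9 kept members (labelled points) in the Med1fl/fl library (x axis) and the csMed1-/- library (y axis), both on log axes, with a solid line at equal values and dashed lines at 2-fold. Atp2a2, Pln, Hrc, Ryr2 and Asph lie below the lower dashed line, Casq1 lies above the upper one, and Casq2 and Jph2 lie close to the solid line.

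The genes of the luminal calcium store did not move together. Hrc (chromosome 7, 45335290 to 45338974, plus strand) encodes the histidine-rich calcium binding protein, which binds both triadin and the pump. Its level was 172 FPKM in Med1fl/fl and 20.1 FPKM in csMed1-/- heart, an 8.55-fold fall (log2 ratio -3.10). Casq2 (chromosome 3, 102086415 to 102146514, plus strand) encodes cardiac calsequestrin, the main calcium buffer of the store. Casq2 had 351 FPKM in Med1fl/fl and 347 FPKM in csMed1-/- heart, a log2 ratio of -0.02. The FPKM ratio of Hrc to Casq2 therefore went from 0.490 to 0.0580.

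Casq1 (chromosome 1, 172209894 to 172219868, minus strand) encodes the calsequestrin that predominates in skeletal muscle. It had 38.0 FPKM in Med1fl/fl and 188 FPKM in csMed1-/- heart, a 4.94-fold rise, and 328 kept genes had a higher ratio. Casq1 made up 9.77% of the summed FPKM of both calsequestrin genes in Med1fl/fl and 35.1% in csMed1-/- heart. That sum was 389 FPKM in Med1fl/fl and 534 FPKM in csMed1-/- heart.

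Markers of skeletal muscle were read beside Casq1. Of the 12 found out of 13, 7 were below 1 FPKM in both libraries. Of the 5 kept, 2 fell and 3 rose past 2-fold, against 18.0% and 13.6% of all kept genes. The summed level of the list was 232 FPKM in Med1fl/fl and 2065 FPKM in csMed1-/- heart, nearly all of it Acta1, α-skeletal actin, at 207 and 2033 FPKM. The genes of fast fibres went both ways. Tnni2 fell from 5.38 to 0.276 FPKM and Myh1 from 4.05 to 0.471 FPKM, whereas Myl1 rose from 13.0 to 26.4 FPKM and Mylpf from 0.955 to 2.44 FPKM. The others were below 1 FPKM in both libraries, among them Myh4 (0.878 and 0.135 FPKM), Pvalb (0.121 and 0.0145 FPKM), Tnnt3 (0.0967 and 0.867 FPKM), Actn3 (0.366 and 0.733 FPKM) and Tnnc2 (0.0517 and 0.158 FPKM). The skeletal pump Atp2a1 (0.194 and 0.103 FPKM) and the skeletal release channel Ryr1 (0.00858 and 0.00154 FPKM) were near 0 in both libraries.

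The junctional genes gave a mixed picture. Jph2 (chromosome 2, 163336242 to 163397993, minus strand) encodes junctophilin 2, which spans the cleft between transverse tubule and reticulum. Its level was 318 FPKM in Med1fl/fl and 277 FPKM in csMed1-/- heart (log2 ratio -0.20). Asph (chromosome 4, 9448069 to 9669344, minus strand) yields an aspartyl hydroxylase as well as junctin and junctate from the same locus, and the value is 1 per gene, so these products cannot be told apart. Asph had 18.6 FPKM in Med1fl/fl and 5.76 FPKM in csMed1-/- heart, a 3.22-fold fall. Trdn (chromosome 10, 33080554 to 33476709, plus strand) encodes triadin. It had 1.57 FPKM in Med1fl/fl and 0.813 FPKM in csMed1-/- heart (log2 ratio -0.95), and its level was among the lowest of the kept genes, in place 9090 in Med1fl/fl heart.

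Ryr2 fell by more than each of the junctional and luminal genes, so relative to it they stood higher in csMed1-/- heart. This includes Asph and Trdn, whose own values were lower there. For Hrc the difference was small (log2 ratio -3.10, against -3.28 for Ryr2). Per unit of Ryr2, Casq2 had 4.15 in Med1fl/fl and 39.8 in csMed1-/- heart, and Jph2 had 3.76 and 31.8. The corresponding FPKM ratios were 0.219 and 0.662 for Asph and 0.0186 and 0.0935 for Trdn, whose own level lies near 1 FPKM in both libraries. In order of level the members ran Atp2a2, Pln, Casq2, Jph2, Hrc, Ryr2, Casq1, Asph, Trdn and Sln in Med1fl/fl heart. In csMed1-/- heart the order was Casq2, Jph2, Atp2a2, Casq1, Pln, Hrc, Ryr2, Asph, Trdn and Sln. Without replicates it is not known which neighbours in either order differ beyond their spread.

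**Figure D3:**
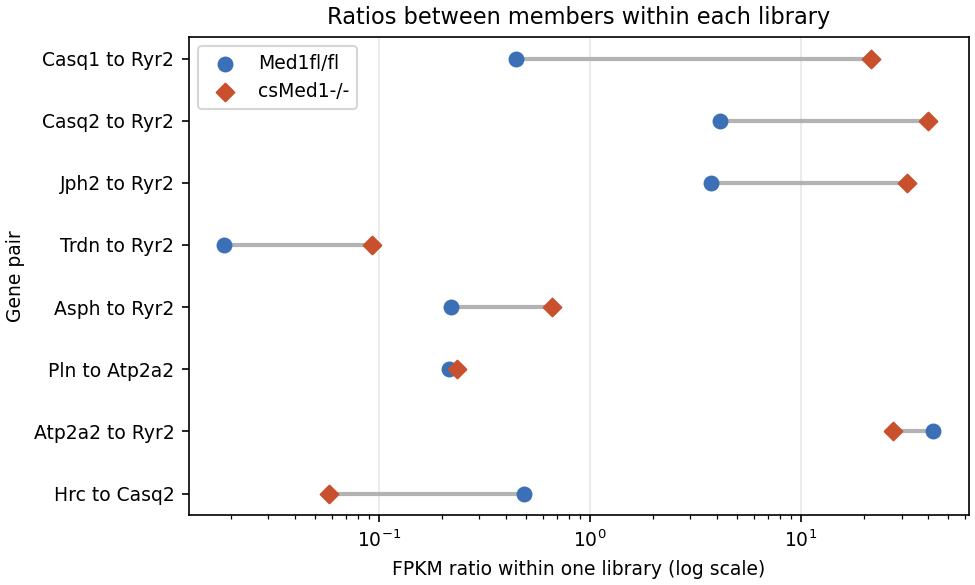
Ratio of the FPKM of 2 members within the Med1fl/fl library (circles) and within the csMed1-/- library (diamonds), on a log axis, for 8 gene pairs. The ratio of Pln to Atp2a2 is nearly the same in both (0.215 and 0.236), whereas that of Casq2 to Ryr2 goes from 4.15 to 39.8 and that of Casq1 to Ryr2 from 0.450 to 21.6.

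Read against the 17 kept cardiomyocyte markers, Atp2a2, Pln, Ryr2 and Hrc each had a lower log2 ratio than every one of them, the lowest of the markers being Tnni3 at -2.74. After the median of the markers was subtracted, Atp2a2 was 7.38-fold, Pln 6.73-fold, Ryr2 4.77-fold and Hrc 4.19-fold lower in csMed1-/- heart. Asph was 1.58-fold lower on this scale and no longer past 2-fold. Casq1 was 10.1-fold and Casq2 2.01-fold higher, the latter at the threshold, and Jph2 was 1.77-fold higher. Of the 17 markers, 13 had a lower log2 ratio than Casq2 and the same number a lower one than Jph2. At 100 FPKM or more in Med1fl/fl were 958 kept genes, of which 23.9% fell and 8.87% rose past 2-fold. Of the 5 members among them 3 fell and none rose. Of these 958 genes, 5 had a lower ratio than Atp2a2, 6 a lower ratio than Pln and 17 a lower ratio than Hrc. A fall past 8-fold, a limit set after the values were seen, was found for 19 of these 958 genes, and Atp2a2 had the highest Med1fl/fl level of the 19 and Pln the third highest.

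**Figure D4:**
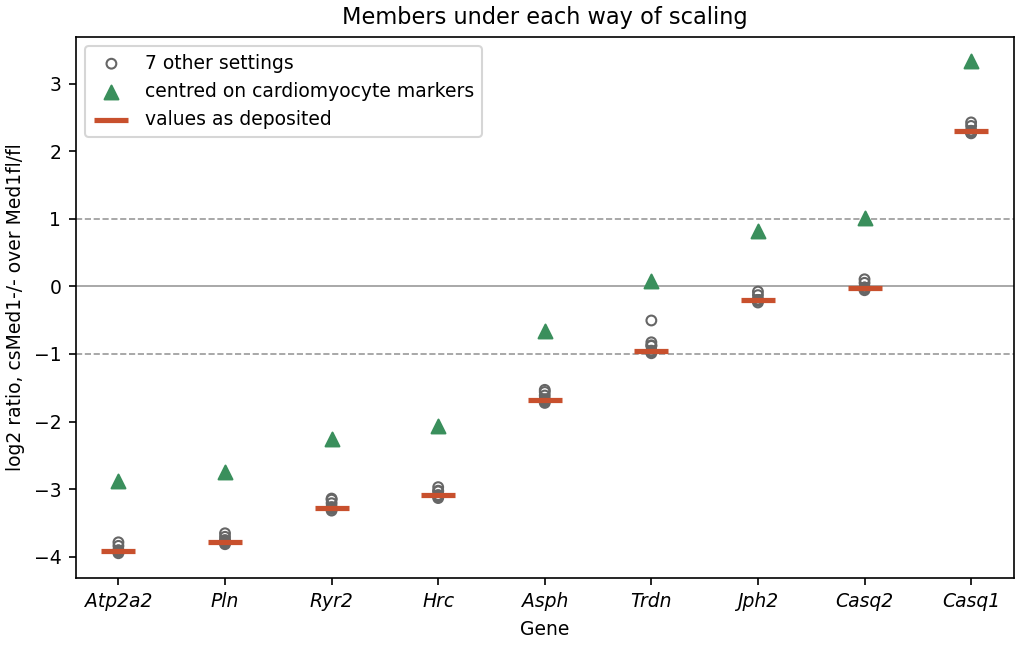
Log2 ratio of csMed1-/- to Med1fl/fl FPKM for the 9 kept members (x axis) with the values as deposited (horizontal bars), centred on the median of the 17 cardiomyocyte markers (triangles) and under the 7 other settings (open circles), with dashed lines at 2-fold. Atp2a2, Pln, Ryr2 and Hrc stay below -2 in all of them and Casq1 above 2, while Asph leaves the range past 2-fold and Casq2 reaches 1.01 once the values are centred on the markers.

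The other genes of the pathway were read from lists of partners of release, uptake, luminal storage, the junction and store-operated entry. Of 56 listed genes 55 were found and 45 were kept. In these 45 genes 4 fell and 6 rose past 2-fold, against 18.0% and 13.6% of all kept genes, and their median log2 ratio was 0.05, against -0.07 over all kept genes.

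Among the 15 kept partners of release, Akap6 alone fell (3.67 to 1.49 FPKM); it encodes an anchor for protein kinase A at the release channel. No gene of this list rose past 2-fold. S100a1, whose protein binds calmodulin sites on the channel and also acts on the pump, had 1083 FPKM in Med1fl/fl and 927 FPKM in csMed1-/- heart. Calm3, one of the calmodulin genes, had 127 and 252 FPKM, just within 2-fold. The other ryanodine receptor, Ryr3, was at 0.0648 and 0.0104 FPKM, and the inositol trisphosphate receptor genes Itpr1 (2.05 and 1.24 FPKM), Itpr2 (0.880 and 0.705 FPKM) and Itpr3 (3.83 and 4.77 FPKM) were within 2-fold.

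Of the 7 kept partners of uptake, Mrln fell from 2.19 to 0.128 FPKM (log2 ratio -4.10). It encodes myoregulin, a further small inhibitor of the pump, known from skeletal muscle, and was matched through its older symbol 2310015B20Rik. Ppp1r2, an inhibitor of protein phosphatase 1, rose from 13.1 to 28.4 FPKM. The pump paralog Atp2a3 had 9.08 FPKM in Med1fl/fl and 9.22 FPKM in csMed1-/- heart, so that it was 25.8 times below Atp2a2 in the csMed1-/- library.

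Among luminal proteins Sdf4 rose from 27.6 to 75.5 FPKM and Rcn3 from 43.6 to 95.2 FPKM, both EF-hand proteins of the secretory pathway. Calr, which encodes calreticulin, was at 210 and 228 FPKM, and none of the 9 genes of this list fell past 2-fold. In store-operated entry Orai2, a channel subunit of the plasma membrane, rose from 0.683 to 4.65 FPKM, and the other 3 kept genes, Stim1, Orai1 and Orai3, had log2 ratios between 0.21 and 0.79.

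The 11 kept genes of the junction included the largest rise and the second largest fall of these lists. Some of the extremes rest on values near the filter. Jsrp1 and Orai2 were below 1 FPKM in Med1fl/fl and Mrln in csMed1-/- heart. With at least 1 FPKM required in both libraries, 3 partner genes fell and 4 rose of 41, beside 1342 and 1037 of 9160 kept genes. Jsrp1, which encodes a junctional protein known to bind calsequestrin 1 in skeletal muscle, rose from 0.498 to 10.7 FPKM (log2 ratio 4.43). Tmem38b, a cation channel of the reticulum membrane, rose from 4.80 to 14.7 FPKM, whereas its paralog Tmem38a was at 571 and 441 FPKM. Cmya5, a large protein of the cardiac dyad, fell from 9.38 to 1.32 FPKM (log2 ratio -2.83) and Speg, a kinase that acts on the reticulum proteins, from 47.7 to 18.6 FPKM. Outside the partner lists and their counts, genes of the sarcolemma were read for context. The L-type channel gene Cacna1c fell from 24.7 to 6.68 FPKM and the exchanger gene Slc8a1 from 7.03 to 2.88 FPKM.

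**Figure D5:**
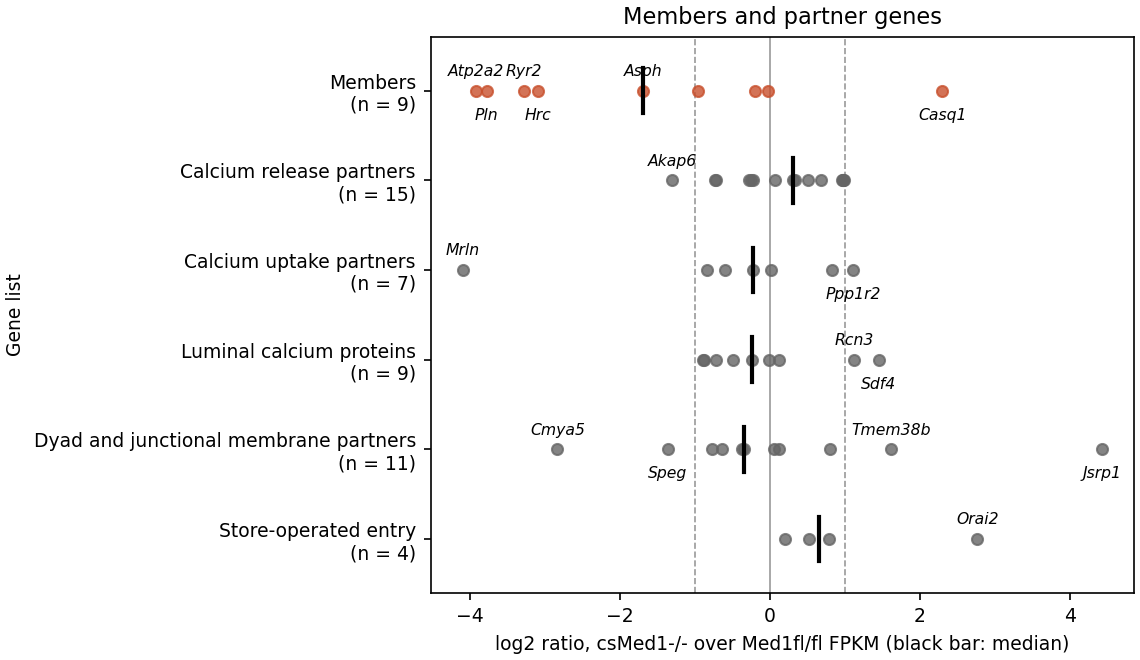
Log2 ratio of csMed1-/- to Med1fl/fl FPKM (x axis) for the 9 kept members and for the kept genes of the 5 partner lists, 1 point a gene, with the median of each list as a black bar and dashed lines at 2-fold. The members' median lies at -1.69, the medians of the partner lists lie between -0.34 and 0.65, and the genes past 2-fold are named.

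Markers of other cells were listed as well. The fibroblast list summed to 503 FPKM in Med1fl/fl and 1193 FPKM in csMed1-/- heart. Of its 8 genes 4 rose and 1 fell past 2-fold, against 13.6% and 18.0% of all kept genes. Col3a1 was highest in Med1fl/fl heart (139 and 220 FPKM) and Col1a1 in csMed1-/- heart (129 and 502 FPKM). The smooth muscle and pericyte list summed to 679 and 1118 FPKM, with 3 genes that rose and 1 that fell of 7, and the sum turned on Cnn1, at 4.32 and 622 FPKM, while Acta2 was at 573 and 310 FPKM. The endothelial list summed to 703 and 636 FPKM, with 3 of 8 genes that fell and none that rose, and Eng was highest at 196 and 233 FPKM. The macrophage and leukocyte list summed to 288 and 395 FPKM, with none of its 6 kept genes past 2-fold. C1qa was highest in Med1fl/fl heart (91.1 and 123 FPKM) and C1qb in csMed1-/- heart (78.2 and 129 FPKM). The part of these cells in the members' values was not tested. Of the erythroid list Alas2 was found, at 35.8 and 82.1 FPKM. Exons of the opposite strand overlap those of Atp2a2 (Gm43361), Pln (Gm47644), Casq1 (Gm17224) and Asph (Clvs1 and Gm25677) in the annotation. The libraries were directional, and whether strand was used in counting is not given in the sources used here.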

How the data were processed

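Heart RNA of 5 Med1fl/fl and 5 csMed1-/- mice was pooled by genotype, and polyadenylated RNA was read as directional 50 nt single-end libraries, 1 per genotype. The authors aligned reads to mm10 with TopHat 2.0.8b and computed the deposited FPKM of known genes with Cufflinks and cuffdiff 2.1.1. The submitters' processing notes also list STAR 2.4.0h and Bowtie2 with no role, and the library scaling is not given in the sources used here. The FPKM summed to 780366 in the Med1fl/fl and 716365 in the csMed1-/- library.

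Read counts are not in the tables, so the depth behind a value is unknown and no interval is given. In 2461 rows with low values in each library (0.15 FPKM at most), the ratio of the libraries was most often 0.718, in a narrow window that holds 43 of them. If that is the worth of 1 read, the csMed1-/- library was 1.39 times as deep, an estimate that rests on those few rows.

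Values of rows sharing a symbol were summed. Members, lists of partners and markers, and motifs were chosen with earlier results of these data known. Named genes are the members, Med1, partners past 2-fold with the most abundant examples of the others, the 3 genes nearest in log2 ratio to Atp2a2, Pln and Ryr2, and the marker at the highest FPKM of each list. Other genes were named after their values were seen, as were the sums over members, the ratios of Atp2a2 and Casq1 to Ryr2 and the 8-fold limit. The code was tested on simulated data with known changes. Python 3.11.15, numpy 2.4.6, pandas 2.3.3 and matplotlib 3.10.9 were used. Alternatives were pseudocounts of 0.1 and 1, other filters, scalings and thresholds, and single rows in place of sums.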

Additional observations from a re-analysis of the deposited data

How the results depend on the processing

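No paired analysis was possible because each genotype is 1 pooled library. Of 72 log2 ratios of single members under the alternatives, 63 moved by less than 1.5 times and none of the called ones changed sign. The 9 others all came from centring on the cardiomyocyte markers, which moved every ratio by 1.03, took Trdn to 0.08 and Jph2 to 0.83, and moved the median of the 9 kept members to -0.66. Under that centring 2 members rose past 2-fold, Casq1 and Casq2, 4 were lower, and of the partner genes 2 were lower and 25 higher. The sign of Casq2, close to 0 as deposited, also turned with centring on the median of kept genes and with scaling to the same FPKM sum. Centring on the markers also turned the split of all kept genes from 1886 lower and 1423 higher to 525 lower and 5042 higher. Scaling to the same FPKM sum shifted all log2 ratios by 0.12 and, like centring on the median of kept genes, gave 10 higher partner genes of 45. Over all 10489 kept genes these 2 settings gave 1677 and 1569 higher. A 4-fold threshold left 2 lower and 2 higher partner genes of 45, beside 539 and 453 of 10489 kept genes. Keeping every gene above 0 in both libraries gave 7 lower partner genes of 54, beside 3182 of 15930 genes. With 10 FPKM in at least one library 1 partner gene of 31 was lower, beside 885 of 5426 genes. With genes at 100 FPKM or more in Med1fl/fl alone, a filter chosen after seeing the data, 5 members were left, of which 3 were lower and 0 higher, beside 23.9% and 8.87% of all genes there. The log2 change of the Sln to Atp2a2 ratio was 3.70 with a pseudocount of 1, in place of 2.88, since Sln is far below 1 FPKM. The cause of these moves was otherwise not tested. With no counts and 1 library per genotype, neither counting error nor the spread between hearts can be given for any gene, and Trdn and Sln are the least certain.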
